A study of Mus musculus with 36 samples.

Results

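Livers of C57 mice killed 6 h after acetaminophen were compared with livers of C57 mice killed 3 h after it. The comparison rests on the 6 arrays whose titles name this strain and these times, out of 36 arrays in the series, with 1 mouse per array. The mice are called A, B and C at 6 h and D, E and F at 3 h, in the order of the numbers in their titles, and values are listed in that order. Both groups had been fasted overnight and had then received a single injection into the abdomen of 300 mg/kg acetaminophen, the analgesic whose overdose kills hepatocytes. A further 3 C57 mice, labelled 0 h, gave the starting level, and 18 mice of the strains SJL, SMJ and DBA, with 3 mice of each strain at 6 h and 3 at 3 h, gave the same change in other strains. Each of these strains also had 3 mice labelled 0 h. Substrain, age and sex of the mice are not given in the labels used here. No arrays of mice given vehicle alone were used, so the hour of the day and the duration of the fast cannot be told apart from time after the dose. No mouse was sampled at more than 1 time, and the labels do not say that any liver RNA was pooled.

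The liver lobule is zoned. Hepatocytes around the central vein receive Wnt signals, make glutamine synthetase and carry most of the cytochrome P450 enzymes that turn acetaminophen into a reactive quinone imine, and they are the cells that die first in acetaminophen injury. Hepatocytes around the portal tract carry the urea cycle and amino acid breakdown. Injured liver is known to switch on immediate early transcription factors, heat shock proteins and neutrophil-attracting chemokines within hours.

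Values are MAS5 signals, a measure of probe brightness per probe set in arbitrary units, and each array had a trimmed mean of 150. Changes are differences of log2(signal + 2.77), given as 6 h minus 3 h with the standard error of the fit, and this scale understates the change of dim genes. A gene was called changed where limma's moderated test, fitted on all 36 arrays, gave a Benjamini-Hochberg adjusted p under 0.05 over 13802 genes. Defining markers fitted the labelled tissue: albumin, the main plasma protein made by hepatocytes, read 14300 to 17000 at 6 h and 12200 to 15900 at 3 h. Pairs of arrays from the same group correlated across genes at 0.912 to 0.962. The 3 arrays at 6 h had somewhat higher dim ends than those at 3 h: the 10th percentile of the signals was 3.33 to 3.91 at 6 h and 2.66 to 2.83 at 3 h, and the array median 32.3 to 36.7 at 6 h and 27.8 to 28.7 at 3 h. With the genes tested split into 4 equal classes by signal, the median change was 0.30 in the dimmest class, 0.18 in the next, and -0.0028 and -0.05 in the 2 brighter ones, so small rises of dim genes move with this shift, and its part in them was not tested.

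Most of the pericentral hepatocyte genes tested were lower in C57 liver at 6 h than at 3 h, and a number of immediate early genes and inhibitors of MAP kinase signalling were higher. Of 13802 genes, 272 were higher at 6 h and 336 were lower, which is 1.97% and 2.43% of those tested and 4.41% together. By at least 2-fold, 125 were higher and 107 lower. The median change over all genes was 0.06. The 3 mice at 6 h all lay on one side of the 3 mice at 3 h for 601 of the 608 called genes. With the 75th percentile of every array as its scale, 230 genes were higher and 496 lower. Leaving out 1 array changed the count: 270 genes were called without mouse B at 6 h and 318 without mouse A at 6 h, 351, 377 and 379 without mouse F, D or E at 3 h, and 789 without mouse 39 of SJL at 3 h. With the spread taken from the 6 arrays of the comparison alone, 56 genes were called, and 43 of them were among the 608. In the directions given for each list below, those 56 held 6 immediate early genes and 6 pericentral markers. They held 1 gene each of the NRF2, fatty acid oxidation, clock and periportal lists. They held 1 gene, called higher, of the mRNA decay list, which had 3 of 19 higher with all 36 arrays (15.8%, against 1.97% of all genes). They held 0 of the heat shock, MAP kinase feedback, cytokine, bile acid, matricellular, proteasome, endothelial and stellate lists. Of the 90 called genes named by the rule given under the processing, 49 were called whichever of the 36 arrays was left out, and 41 were not when at least 1 array was left out. By contrast, 31 genes were called in C57 liver at 3 h against 0 h (0.225% of those tested), 24 higher (0.174%) and 7 lower (0.0507%), and 1354 at 6 h against 0 h (9.81%), 573 higher (4.15%) and 781 lower (5.66%). These comparisons share arrays with the one from 3 h to 6 h.

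**Figure D1:**
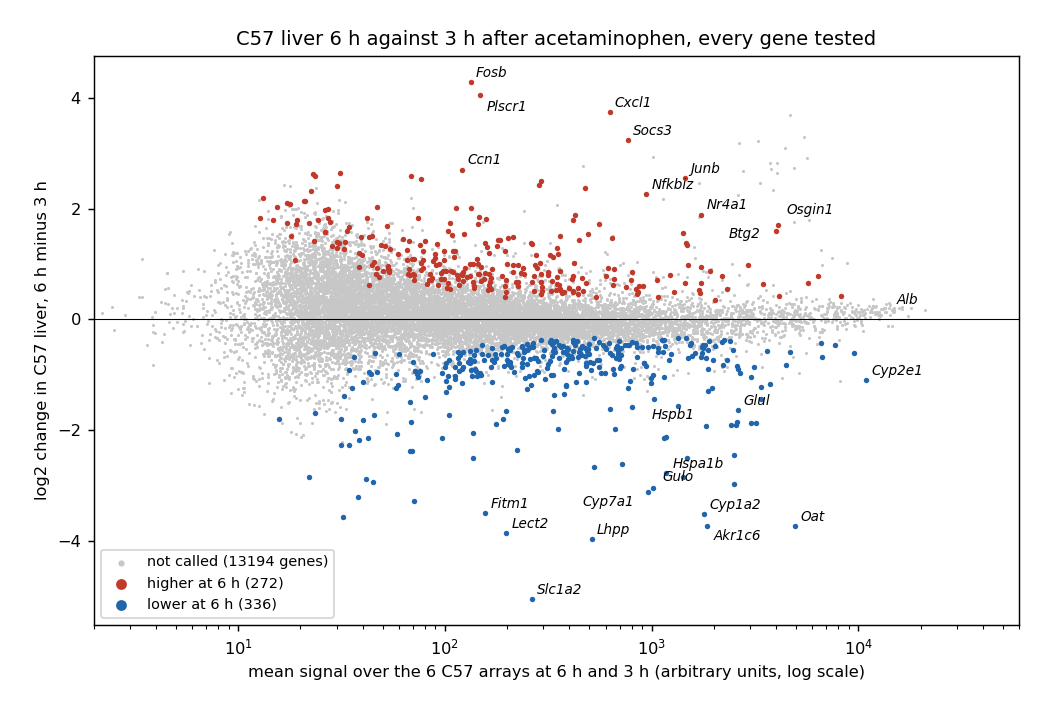
Each point is 1 of 13802 genes, with the mean signal over the 6 C57 arrays on a log axis and the log2 change, 6 h minus 3 h, on the vertical axis. The 272 genes called higher (red) are spread over all signal levels, and the genes with the deepest falls among the 336 called lower (blue) include Slc1a2 at -5.05, Lhpp at -3.97 and Oat at -3.74.

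Genes of pericentral hepatocytes had the lowest median change of the 40 gene lists examined. Of 26 tested, 18 were lower at 6 h (69.2%, against 2.43% of all genes), none was higher, and the median change was -1.74. In 20 of the 26 the 6 h signals all lay below the 3 h signals, which was so for 12.2% of all genes. Slc1a2, Lhpp, Lect2, Oat and Cyp1a2 had the deepest falls of the list. The summed signal of the 26 genes was 28160, 24540 and 34460 in the 3 mice at 6 h, against 75000, 70930 and 67740 in the 3 mice at 3 h. In bulk liver, fewer cells of a type and less RNA per cell cannot be told apart. Without mouse B at 6 h 15 of the 26 were called, and with the spread of the 6 arrays alone 6 were.

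Slc1a2, a glutamate transporter of the perivenous cells, read 5.94, 4.08 and 55.7 in mice A, B and C at 6 h, against 439, 585 and 487 at 3 h. Its change was -5.05 ± 0.68 (limma adjusted p = 3.51e-05), and 2 of its 3 signals at 6 h were close to the dim end of their arrays. A second of its probe sets gave -5.02, and another, dim at both times, gave -1.49 and was not called. Lhpp, a phosphatase, read 42.7, 39.8 and 114.9 at 6 h, against 896, 861 and 1120 at 3 h, a change of -3.97 ± 0.37 (adjusted p = 1.01e-07). For both genes mouse C had the highest of the 3 signals at 6 h, and it still lay far below every mouse at 3 h.

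Oat, ornithine aminotransferase, which turns ornithine towards glutamate and then glutamine in the perivenous cells, read 620, 463 and 1100 at 6 h and 9955, 8307 and 9166 at 3 h. Its change was -3.74 ± 0.29, a 13.3-fold lower level (adjusted p = 1.64e-09). Glul, glutamine synthetase and the defining marker of the innermost ring of hepatocytes, read 1436, 1286 and 1088 at 6 h and 4081, 4141 and 3644 at 3 h, with a change of -1.64 ± 0.29 (adjusted p = 0.000852). The groups did not overlap for either gene, and a second probe set of Glul gave -1.83. Rhbg, an ammonium transporter of the same cells, changed by -2.39.

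The P450 enzymes that act on acetaminophen fell by different amounts. Cyp1a2 read 217, 162 and 626 at 6 h, against 2864, 3824 and 3111 at 3 h, a change of -3.52 ± 0.30 (adjusted p = 1.74e-08). Cyp2e1, the main enzyme of acetaminophen activation, read 6182, 4650 and 10628 at 6 h, against 18456, 13115 and 12552 at 3 h, a change of -1.10 ± 0.21 (adjusted p = 0.00225). Mouse C kept the highest signal of the 3 for both enzymes, yet still lay below every mouse at 3 h. Of the 13 genes of acetaminophen activation and conjugation, 3 were lower (23.1%, against 2.43% of all genes) and none higher. The third was Ugt2b1, a glucuronosyltransferase, at 1282, 1800 and 2540 at 6 h and 5181, 5162 and 4384 at 3 h, with a change of -1.44 ± 0.23 (adjusted p = 0.000239). Of 48 genes with symbols from Cyp1 to Cyp4, a grouping made after the values were seen, 9 were lower and none higher. The share lower over all genes was 2.43%. Of these 9, 5 were among the 11 Cyp2c genes.

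Further pericentral genes carried other functions. Gulo, the last enzyme of vitamin C synthesis, read 234, 212 and 201 at 6 h and 1477, 2046 and 1919 at 3 h, with a change of -3.04 ± 0.21 and the smallest adjusted p of the named genes, 4.32e-10. Rgn, the lactonase one step earlier in that pathway, read 554, 308 and 995 at 6 h and 4339, 4417 and 4393 at 3 h, a change of -2.98 ± 0.35 (adjusted p = 4.97e-06). Lect2, a secreted protein controlled by Wnt signals in liver, read 29.8, 7.66 and 43.6 at 6 h and 281, 401 and 420 at 3 h, a change of -3.86 ± 0.43 (adjusted p = 2.5e-06). All 3 genes had non-overlapping groups.

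Among Wnt pathway and transcription factor genes of the list the outcome was mixed. Axin2, a feedback inhibitor of Wnt signalling, changed by -2.14, and Tbx3, a repressor induced by the pathway, by -1.85, and both were called lower. Of the 3 further probe sets of Tbx3, 1 gave -2.36 and was called, and those at -0.20 and 0.06 were not. Lgr5, the receptor for R-spondin, at -0.50 (adjusted p = 0.414), Rnf43 and Znrf3, the ligases that remove Wnt receptors, at -0.16 and -0.24, and Nkd1 at 0.26 did not pass the test. Ahr, the dioxin receptor, was lower at -1.01 ± 0.22 (adjusted p = 0.00601), while its second probe set gave -0.20 and was not called. The other members called lower were Slc13a3, Cyp2c37, Cyp2c29, Cyp27a1 and Aldh1a1, with changes between -2.27 and -0.46, and the others not called were Cyp2c50, Cyp2c54, Sp5 and Slc1a4.

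No pericentral gene differed at 3 h from 0 h by the test. None of the 26 was called at 3 h against 0 h, with a median change of 0.14. At 6 h against 0 h 17 were lower, where 5.66% of all genes were. Oat read 7142, 8816 and 7369 in the 3 mice at 0 h, and Slc1a2 read 442, 546 and 471. These ranges overlap those at 3 h.

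**Figure D2:**
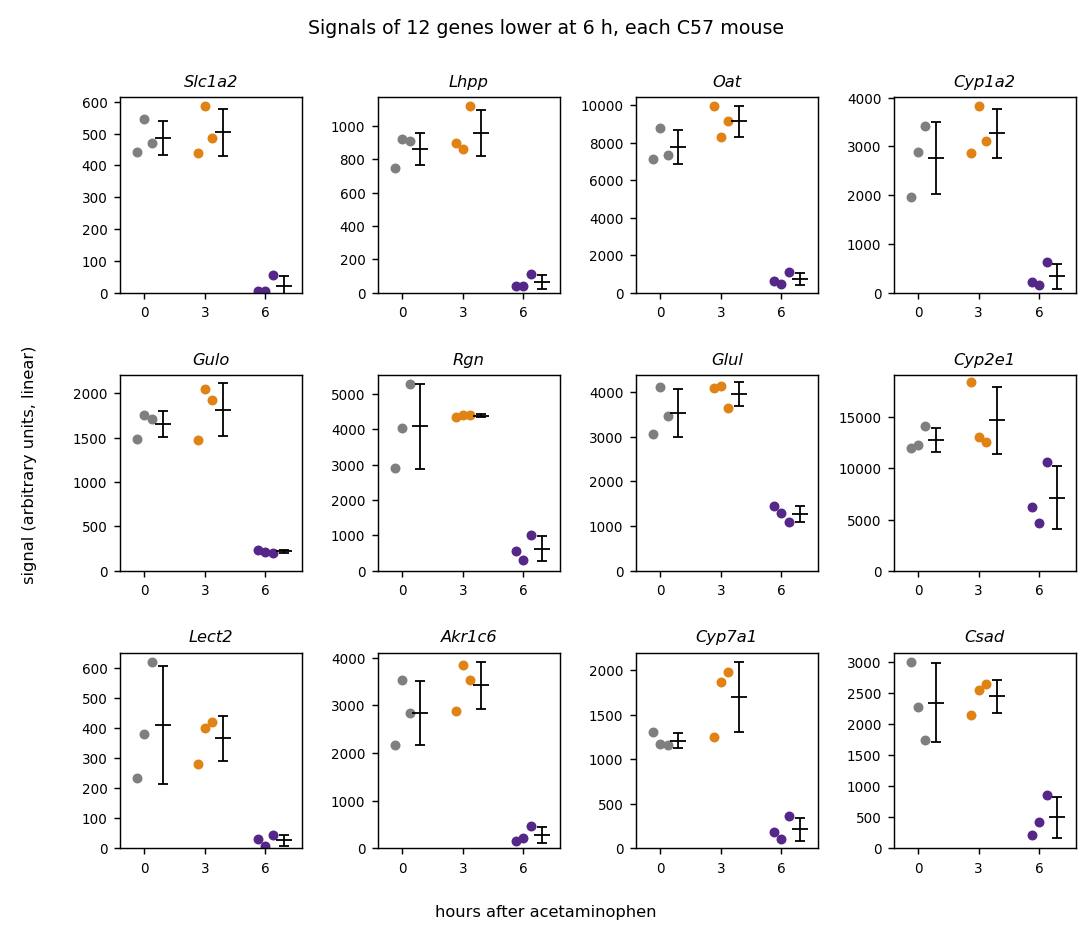
Signals (arbitrary units, linear axes from 0) of 12 genes called lower at 6 h in each C57 mouse at 0 h, 3 h and 6 h, with the mean ± SD of 3 mice beside the points. In every panel the 3 mice at 6 h lie below the 3 mice at 3 h, as for Oat at 463 to 1100 against 8307 to 9955, and in all panels but those of Gulo and Glul mouse C has the highest signal of the 3.

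Other deep falls lay outside the pericentral list. Akr1c6, a hydroxysteroid dehydrogenase of liver, read 155, 226.4 and 468 at 6 h and 2886, 3855 and 3528 at 3 h, a change of -3.72 ± 0.37 (adjusted p = 2.94e-07). Csad, which makes hypotaurine on the way from cysteine to taurine, read 214, 428 and 857 at 6 h and 2144, 2555 and 2657 at 3 h, a change of -2.50 ± 0.38 (adjusted p = 0.00015). Fitm1, a fat storage-inducing transmembrane protein, read 20.2, 21.3 and 27.5 at 6 h and 306, 258 and 304 at 3 h, a change of -3.51 ± 0.42 (adjusted p = 7.49e-06). None of these 3 genes had overlapping groups. E2f8, a repressor of the E2F family that limits cell cycle genes, was dimmer, at 2.96, 7.65 and 5.27 at 6 h and 69.9, 85.1 and 56.7 at 3 h, with a change of -3.21 ± 0.55 (adjusted p = 0.000706). Adgrg2, Cyp2c39, Rad51b and Rfx4, whose signals at 6 h were under 38, completed the 15 deepest falls, and a second probe set of Rad51b gave -0.37.

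Several genes of bile acid synthesis and uptake were lower. Of 21 tested, 6 were lower (28.6%, against 2.43% of all genes) and 1 was higher (4.76%, against 1.97%), with a median of -0.20. Cyp7a1, the hydroxylase that starts bile acid synthesis from cholesterol, read 181.1, 105 and 359 at 6 h and 1254, 1870 and 1980 at 3 h, a change of -3.11 ± 0.55 (adjusted p = 0.000948), and a second probe set gave -2.93. Hsd3b7, Cyp8b1 and Cyp27a1, enzymes further along the pathway, changed by -0.82, -0.69 and -0.60. The uptake transporters Slco1b2 and Slco1a1 changed by -1.23 and -1.44. Further probe sets of Slco1b2 gave -0.86 and -1.28, both called, and at low signal 0.23 and 1.01, not called. By contrast Slc10a1, the sodium-coupled bile acid importer, was called higher at 0.42 ± 0.12 (adjusted p = 0.0462). Its call was lost with the 75th percentile as the scale and with no filter on signal. No member of the list was called higher without any 1 of 22 of the 36 arrays, among them all 3 of C57 at 3 h and arrays of the other strains. Without mouse A at 6 h 3 of the 21 were called lower, and Cyp8b1 was among those lost, at an adjusted p of 0.0619.

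Fatty acid genes changed at few points. Of 28 genes of fatty acid oxidation and PPARA targets, 3 were lower (10.7%, against 2.43% of all genes) and none higher, and the median was -0.14. Acot1, an acyl-CoA thioesterase, read 976, 1003 and 1041 at 6 h and 3908, 3544 and 3993 at 3 h, a change of -1.92 ± 0.27 (adjusted p = 8.22e-05). Cyp4a12a, a fatty acid hydroxylase, read 807, 1013 and 2455 at 6 h and 4415, 4979 and 4475 at 3 h, a change of -1.87 ± 0.25 (adjusted p = 3.51e-05). Ehhadh, a peroxisomal enzyme of fatty acid oxidation, changed by -0.61 ± 0.17 (adjusted p = 0.0327) and lost the call without mouse B or A at 6 h or any 1 mouse at 3 h, with adjusted p from 0.0633 to 0.211. None of 19 fatty acid synthesis genes and none of 17 cholesterol synthesis genes was called.

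Periportal genes and secreted proteins were not among the genes called lower. Of 22 periportal genes 1 was higher (4.55%, against 1.97% of all genes) and none lower, with a median of 0.23. This was Ftcd, an enzyme of histidine breakdown, which read 7260, 6876 and 6869 at 6 h and 4314, 4329 and 4631 at 3 h. Its change was 0.66 ± 0.12 (adjusted p = 0.00106). Hal, which opens the same pathway, stood at 0.64 (adjusted p = 0.119). None of 21 secreted plasma proteins was called in either direction, with a median of 0.16. Among 19 genes of the methionine cycle and sulfur amino acids, Csad and Pemt were lower, where 2.43% of all genes were called lower. None was higher. The call of Pemt was lost without mouse F at 3 h (adjusted p = 0.0683) or mouse A at 6 h (adjusted p = 0.0657). The betaine-homocysteine methyltransferases Bhmt and Bhmt2 stood at 0.20 (adjusted p = 0.524) and 0.12 (adjusted p = 0.799). The median of 28 respiratory chain genes was 0.09 and none was called.

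Several immediate early genes were higher at 6 h. These are transcription factors and regulators that cells switch on within minutes to hours of a stimulus without new protein synthesis. Of 29 tested, 8 were higher (27.6%, against 1.97% of all genes) and none was lower, with a median of 1.03. In 21 of the 29 the 6 h signals all lay above the 3 h signals, which was so for 15.2% of all genes. Without mouse B at 6 h 5 were called.

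Fosb, a partner of Jun proteins in the AP-1 factor, read 254, 426 and 91.1 at 6 h, against 13.2, 3.11 and 12 at 3 h, with a change of 4.29 ± 0.63 (adjusted p = 0.000108). Since the 3 h signals lay near the dim end of the arrays, the size of this change moves with the amount added before log2, at 4.56 with 1 added and 3.23 with 16. Its signals at 0 h, 10.3, 10.8 and 21.2, were as low as at 3 h. Junb, another AP-1 subunit, read 2796, 2801 and 1831 at 6 h and 388, 374 and 486 at 3 h, a change of 2.55 ± 0.40 (adjusted p = 0.000221). Ier3, a stress-induced survival protein, read 516, 525 and 400 at 6 h and 88.4, 70.2 and 104 at 3 h, a change of 2.42 ± 0.38 (adjusted p = 0.000253). Both genes had non-overlapping groups.

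Btg2, an antiproliferative protein that promotes mRNA deadenylation, was among the tightest, at 5837, 6083 and 6047 at 6 h and 2052, 1962 and 1937 at 3 h, with a change of 1.59 ± 0.35 (adjusted p = 0.00816). Nr4a1, an orphan nuclear receptor, read 2433, 4031 and 1825 at 6 h and 663, 764 and 687 at 3 h, a change of 1.89 ± 0.49 (adjusted p = 0.0264). Its call was lost without mouse A or B at 6 h or any 1 mouse at 3 h, with adjusted p from 0.0603 to 0.155. Maff, Fosl2 and Klf6, at 1.80, 1.23 and 1.18, were the other members called.

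Several of the best-known members were higher at 6 h in every mouse but did not pass the test. Fos read 8185, 7938 and 5173 at 6 h and 1394, 713 and 960 at 3 h, a difference of 2.82 ± 0.94 (adjusted p = 0.0884). Atf3, a stress factor of the ATF family, read 2072, 2603 and 1962 at 6 h and 1065, 944 and 1032 at 3 h, a difference of 1.11 ± 0.59 (adjusted p = 0.325). The spread in the fit comes from all 12 groups, and it gave these genes standard errors of 0.94 and 0.59. Atf3 was already high at 3 h against 0 h, when it read 70, 12.3 and 75.6 (4.52, adjusted p = 0.00033).

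Several inhibitors that switch MAP kinase signals off were also higher. Of 13 genes of this feedback, 6 were higher (46.2%, against 1.97% of all genes) and none lower, with a median of 0.75. Spry2 and Spry4, Sprouty inhibitors of receptor tyrosine kinase signalling, read 88.3, 91.6 and 63.3 and 96.2, 98.6 and 97.8 at 6 h, against 18.3, 30 and 22.1 and 38.6, 23.2 and 46.7 at 3 h. Their changes were 1.68 ± 0.26 (adjusted p = 0.000225) and 1.41 ± 0.24 (adjusted p = 0.000553). The further probe sets of Spry4, dim at 3 h, gave larger changes of 2.35, 3.11 and 3.20, and all were called. Dusp6, a phosphatase of the ERK kinases, read 2658, 2292 and 1456 at 6 h and 885, 594 and 655 at 3 h, a change of 1.56 ± 0.29 (adjusted p = 0.00159). Dusp4, Dusp5 and Dusp14 changed by 1.54 to 2.14 from signals under 85 at 3 h. Without mouse A at 6 h, or without mouse E or F at 3 h, 3 of the 13 were called.

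Among cytokine, chemokine and adhesion genes 3 of 29 were higher (10.3%, against 1.97% of all genes) and none lower, with a median of 0.63. Socs3, the inhibitor of cytokine receptors that IL-6 and STAT3 induce, read 1277, 2128 and 769 at 6 h and 107, 198 and 111 at 3 h, a change of 3.23 ± 0.45 (adjusted p = 5.67e-05), and 2 further probe sets gave 3.98 and 3.40. Cxcl1, a chemokine that attracts neutrophils, read 1268, 1917 and 359 at 6 h and 76.3, 51.9 and 82.4 at 3 h, a change of 3.74 ± 0.95 (adjusted p = 0.0215). Its call was lost without mouse A or B at 6 h or any 1 mouse at 3 h, with adjusted p from 0.0538 to 0.126. Of the further probe sets of Cxcl1, 1 gave 3.72 and was called, and the other gave 1.30 (adjusted p = 0.108) and was not. The third was Il1a at 1.49 (adjusted p = 0.0447), a call lost without 20 of the 36 arrays and at an adjusted p of 0.237 without mouse B.

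Nfkbiz, a nuclear member of the NF-kB inhibitor family, was the only one of 15 NF-kB genes called (6.67%, against 1.97% of all genes). It read 2094, 1579 and 1047 at 6 h and 349, 257 and 343 at 3 h, a change of 2.26 ± 0.34 (adjusted p = 0.00015), and 2 further probe sets gave 2.30 and 3.01. Irf1, the only called member of 18 interferon genes (5.56%), read 493, 628 and 376 at 6 h and 157, 234 and 210 at 3 h. Its change was 1.29 ± 0.29 (adjusted p = 0.00787). Without mouse B at 6 h or mouse D at 3 h its adjusted p was 0.0659 or 0.0539. None of 23 acute phase proteins was called, with a median of 0.17.

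**Figure D3:**
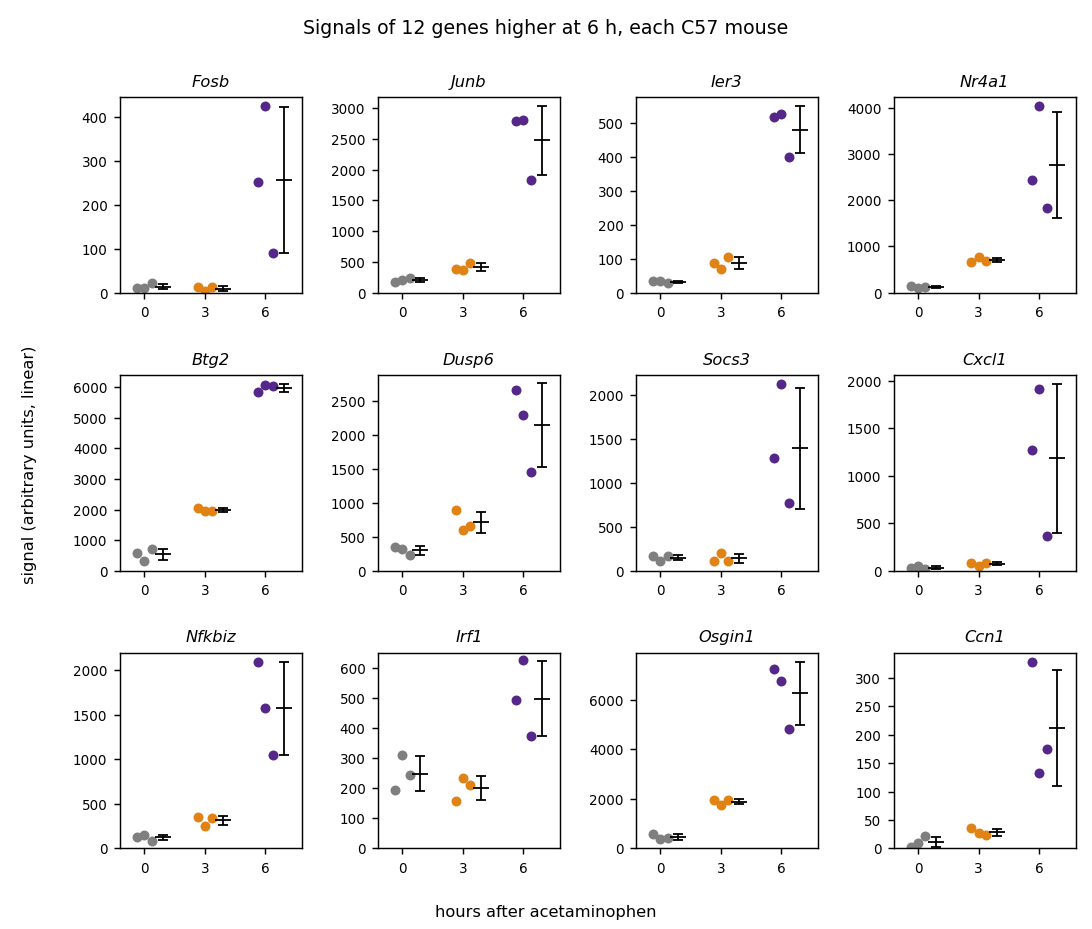
Signals (arbitrary units, linear axes from 0) of 12 genes called higher at 6 h in each C57 mouse at 0 h, 3 h and 6 h, with the mean ± SD of 3 mice beside the points. All panels have the 3 mice at 6 h above the 3 mice at 3 h, as for Socs3 at 769 to 2128 against 107 to 198, and the spread at 6 h is wide for Fosb (91.1 to 426) and Cxcl1 (359 to 1917).

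Matricellular genes and targets of the YAP coactivator had 4 of 15 higher (26.7%, against 1.97% of all genes) and none lower. Ccn1, a secreted matrix protein, read 328, 133 and 176 at 6 h and 35.1, 26.7 and 23.2 at 3 h, a change of 2.70 ± 0.57 (adjusted p = 0.00495), with 3 further probe sets between 2.46 and 2.73. Thbs1, thrombospondin, read 81.1, 102.3 and 92.7 at 6 h and 43.4, 52.1 and 22 at 3 h, a change of 1.25 ± 0.25 (adjusted p = 0.00375). A second probe set of Thbs1 gave 2.33 and was also called. Amotl1 changed by 0.68. Ankrd1 changed by 2.63 from signals under 9 at 3 h, with the call lost without mouse A or B at 6 h or mouse E or F at 3 h (0.0655 to 0.0728), and its second probe set gave 1.43 and was not called (0.213).

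The antioxidant targets of the factor NRF2 gave few calls. Of 27 targets 1 was higher (3.7%, against 1.97% of all genes). This was Osgin1, an oxidative stress-induced growth inhibitor, which read 7232, 6744 and 4807 at 6 h and 1958, 1756 and 1967 at 3 h. Its change was 1.70 ± 0.31 (adjusted p = 0.00118). Hmox1, heme oxygenase, read 10149, 8333 and 8996 at 6 h and 6305, 2659 and 3321 at 3 h, a difference of 1.26 ± 0.51 (adjusted p = 0.178). The glutathione synthesis subunits Gclc and Gclm stood at 0.53 (adjusted p = 0.201) and 0.17 (adjusted p = 0.442), and Nqo1 at 0.67 (adjusted p = 0.244). Of the 27 targets, 4 were already called higher at 3 h against 0 h, and 13 were higher at 6 h against 0 h. The shares over all genes were 0.174% and 4.15%.

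Some genes of the circadian clock were higher. Of 17 tested, 3 were called higher (17.6%, against 1.97% of all genes). Bhlhe40, a repressor of the clock, read 855, 1204 and 773 at 6 h and 244, 428 and 358 at 3 h. Its change was 1.46 ± 0.27 (adjusted p = 0.00113). Cry2 changed by 0.67 ± 0.14 (adjusted p = 0.00654) and was called except without mouse B at 6 h (0.0528). Dbp, an output gene with a daily rhythm in liver, changed by 1.60 ± 0.42 (adjusted p = 0.0294), and its call was lost without mouse A or C at 6 h or mouse E or F at 3 h, at up to 0.142. With no vehicle arrays at these hours, time of day cannot be told apart from the drug.

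Other named rises included Mcl1, a survival protein of the BCL2 family, at 2244, 2252 and 1528 at 6 h and 1076, 1016 and 929 at 3 h, with a change of 0.97 ± 0.16 (adjusted p = 0.000489). All 5 of its further probe sets were higher, at 0.59 to 1.08. Plscr1, Ndfip2, Btg1 and Mapk8ip2 were called higher by the probe set that stood for each gene, at 4.06, 2.50, 1.85 and 2.41. Their further probe sets gave -0.03 and 0.20, 0.52 and -0.24, -0.38 and -0.34, and -0.61 and -0.94, with none of these called, so the genes as a whole have no settled direction.

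A few heat shock genes were lower in C57 liver at 6 h. Heat shock proteins are chaperones induced through the factor HSF1 when proteins are damaged. HSF1 binds inverted units of the letters GAA, and GAANNTTC, which reads the same on both strands, is the shortest inverted pair. It was searched in the 250 bases before each start site of the RefSeq promoters (GRCm38.p6). Of 18 heat shock genes on the list with a promoter in that table, 8 held it (44.4%), against 6.27% of 11093 tested genes with a promoter and 6.69% of 32851 promoters. It was 1 of 6 motifs searched on both strands in the promoters of called genes and of 3 lists, those of heat shock, immediate early and pericentral genes. Among called genes with a promoter, GAANNTTC was in 8.3% of 277 lower and 5.96% of 218 higher, close to the 6.27% of all tested genes. The AP-1 site was in 6.86% of those lower and 6.88% of those higher, against 6.19%. The AP-1 site TGANTCA was in 0 of 23 immediate early genes with a promoter, against 6.19% of all tested genes. The cyclic AMP response element TGACGTCA was in 3 of those 23, against 2.78% of all tested genes. The core of the antioxidant response element, TGACNNNGC, was in 5 of the 23 (21.7%, against 13.7%). The CHOP and ATF4 site TGATGCAA was in 2 of them (8.7%, against 0.703%). The HNF4 motif CAAAGTTCA was in 0 of 17 pericentral genes with a promoter, against 0.469% of all tested genes. At so low a share, 0 of 17 is no result about these genes. GAANNTTC was held by the 2 heat shock genes with the deepest falls, Hspa1b and Hspb1. It was also held by Hspa1a, Hspd1, Hspe1, Dnaja1, Dnaja4 and Fkbp4, which were not called between 3 h and 6 h. The promoters of Hspa1b and Hspb1 are shown with each GAANNTTC match in capitals. They lie on the minus strand of chr17:34959239-34959488 for Hspa1b and on the plus strand of chr5:135887669-135887918 for Hspb1.
Hspa1b: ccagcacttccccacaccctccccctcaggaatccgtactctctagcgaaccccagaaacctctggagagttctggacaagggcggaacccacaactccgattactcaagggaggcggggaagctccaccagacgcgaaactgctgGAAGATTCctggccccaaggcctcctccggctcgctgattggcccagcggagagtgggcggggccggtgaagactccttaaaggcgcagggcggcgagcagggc
Hspb1: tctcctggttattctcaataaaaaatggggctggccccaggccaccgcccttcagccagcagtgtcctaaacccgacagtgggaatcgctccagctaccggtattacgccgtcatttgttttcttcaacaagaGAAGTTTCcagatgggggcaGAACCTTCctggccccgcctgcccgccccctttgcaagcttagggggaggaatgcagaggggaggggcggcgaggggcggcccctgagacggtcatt

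The Hspa1b promoter held 1 match, starting 104 bases before the start site, and the Hspb1 promoter held 2, at 117 and 97 bases before it. Hspa4l and Ahsa1, which were also called lower, and Hsph1 held none in this window. A match is a description of the letters only.

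Hspa1b, an inducible HSP70, read 210, 277 and 368 at 6 h, against 3116, 1322 and 1735 at 3 h, with a change of -2.78 ± 0.68 (adjusted p = 0.0157), and 2 further probe sets gave -2.57 and -2.82. Hspb1, the small heat shock protein HSP27 in human nomenclature, read 597, 675 and 1053 at 6 h and 2880, 2582 and 3153 at 3 h, a change of -1.92 ± 0.46 (adjusted p = 0.0133), and a second probe set gave -2.13. The groups did not overlap for either gene. Hspa4l, a relative of HSP110, changed by -0.77 (adjusted p = 0.0318) and Ahsa1, an activator of HSP90, by -0.66 (adjusted p = 0.00873). A second probe set of Ahsa1, dim at both times, gave -0.11 and was not called.

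These 4 were the members called among 21, where 2.43% of all genes were called lower, with none higher and a median of -0.30. In 12 of the 21 the 6 h signals all lay below the 3 h signals, which was so for 12.2% of all genes. The calls depend on single mice: 0 of 21 were called without mouse B at 6 h, 1 without mouse A at 6 h and 1 without mouse F at 3 h. Hspa1b lost its call without mouse D at 3 h (0.0866), and without mouse A or B at 6 h (0.0727 or 0.0599), and Hspb1 without mouse F at 3 h (0.0538), or without mouse A or B at 6 h (0.0688 or 0.064). Before the dose Hspa1b read 829, 1756 and 626, and neither time was called against 0 h for it. Hspa1a, whose transcript is nearly identical to that of Hspa1b, stood at 0.97 ± 0.89 (adjusted p = 0.606). How far the probe sets of this pair separate the transcripts was not tested. The constitutive mitochondrial chaperones Hspd1, Hspe1 and Hspa9 stood between -0.09 and 0.08.

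Proteasome subunits leaned the same way by small amounts. Of 31, 5 were lower (16.1%, against 2.43% of all genes) and none higher, 29 had a negative change, and the median was -0.23. Psma1 read 1494, 1193 and 1480 at 6 h and 2250, 2036 and 2051 at 3 h, a change of -0.61 ± 0.15 (adjusted p = 0.0157). Without mouse B, which had the lowest summed signal of this list (41870, against 50640 and 50210 in the other mice at 6 h), none of the 31 was called, and without any 1 mouse at 3 h 1 was. The other settings tried on all arrays gave 2 to 11. Endoplasmic reticulum chaperones had a median of -0.27 with none of 19 called, and the integrated stress response a median of 0.55 with none of 19 called.

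Some markers of cells other than hepatocytes were higher by small amounts. Of 20 sinusoidal endothelial markers 7 were higher (35%, against 1.97% of all genes) and none lower, with a median of 0.58. Dnase1l3, a secreted nuclease, read 298, 308 and 290 at 6 h and 171, 179 and 150 at 3 h, a change of 0.83 ± 0.15 (adjusted p = 0.00136), and Clec4g, a lectin of these cells, changed by 0.66 ± 0.15 (adjusted p = 0.00787). Stab2, the hyaluronan scavenger receptor that defines them, read 812, 725 and 756 at 6 h and 426, 428 and 479 at 3 h, a change of 0.78 ± 0.21 (adjusted p = 0.0285), with the call lost without any 1 of the 6 mice (0.0544 to 0.0987). The summed signal of the list was 9433, 9245 and 9703 at 6 h and 6164, 6783 and 6540 at 3 h. Without mouse B at 6 h or mouse E at 3 h 2 were called, without mouse A or C at 6 h or mouse D at 3 h 3, and without mouse F at 3 h 4. With the 75th percentile as the scale 4 were called.

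Of 19 stellate cell and fibroblast markers 5 were higher (26.3%, against 1.97% of all genes) and none lower, with a median of 0.58. Dcn, decorin, read 3898, 4284 and 4545 at 6 h and 2750, 2806 and 2579 at 3 h, a change of 0.64 ± 0.14 (adjusted p = 0.00629). Reln, reelin, changed by 0.58 ± 0.15 (adjusted p = 0.0226), a call lost without any 1 of the 6 mice but mouse A (0.0513 to 0.0962), and a second probe set gave 0.24 and was not called, while Lrat, the retinol esterase of stellate cells, read 84.1 to 112 at 6 h and 80.3 to 122 at 3 h. Without mouse B at 6 h, or without mouse E or F at 3 h, 1 of the 19 was called. Kupffer cell markers had 2 of 21 higher (9.52%, against 1.97% of all genes), and the median was 0.45. Mouse E stood apart from the others at 3 h: the summed signal of this list was 12040, 11050 and 11720 at 6 h, against 7508, 12150 and 7458 at 3 h. Without mouse E 6 of the 21 were called, without mouse C 1, without mouse A, B, D or F 0, and with the 75th percentile as the scale 0. C1qc, a complement subunit, changed by 0.60 with groups that overlapped, and Mrc1, the mannose receptor, by 0.46, and each call was lost without several single mice, at adjusted p up to 0.212 and 0.148.

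White blood cell markers gave no call. None of 14 neutrophil markers was called, with a median of 0.62, and S100a8 read 358 to 433 at 6 h and 143 to 468 at 3 h, ranges that overlap. The summed signal of the neutrophil list was 1641, 1371 and 1623 at 6 h and 715, 997 and 1291 at 3 h. None of 9 lymphocyte, 9 bile duct or 5 erythroid markers was called, and Cd3e, the T cell marker, read 7.16 to 16.5 at 6 h and 9.25 to 19.2 at 3 h, close to the dim end of the arrays. How much the marker lists of other cells contribute to the rises of immediate early and chemokine genes was not tested.

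**Figure D4:**
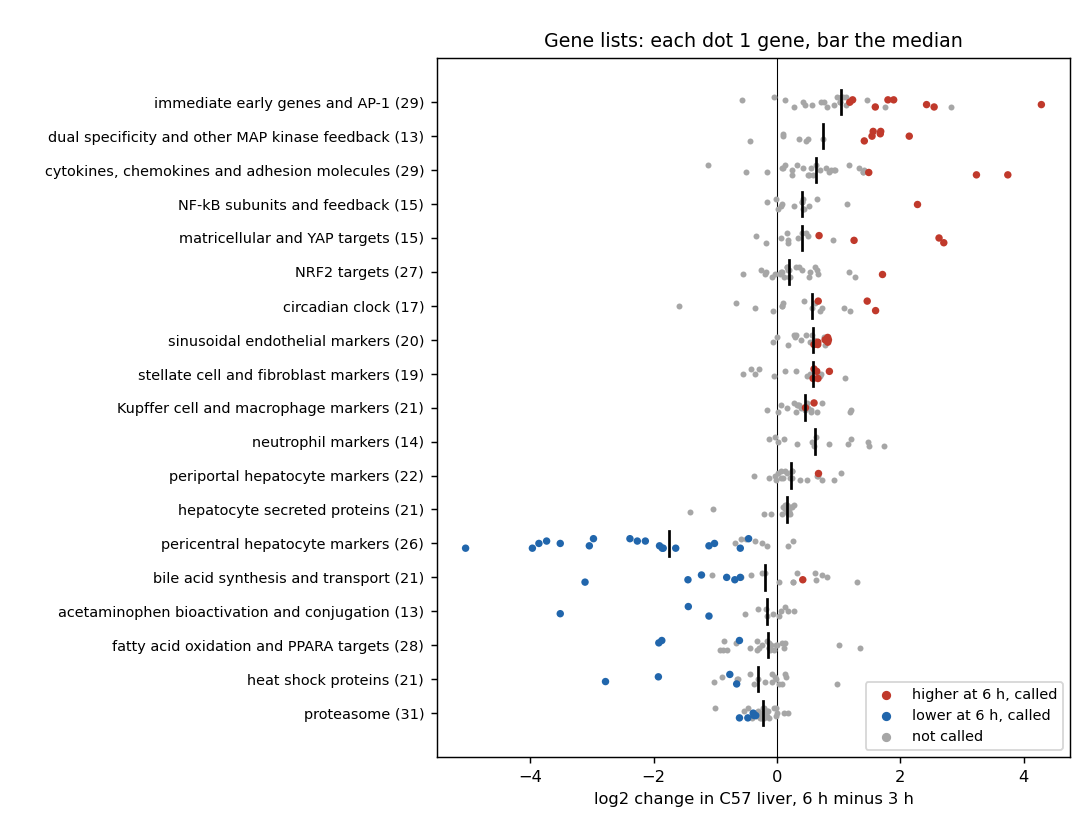
Each dot is 1 gene of 1 of 19 lists (number tested in brackets), placed by its log2 change, 6 h minus 3 h, with called genes in red (higher) or blue (lower) and the list median as a bar. The pericentral list has its median at -1.74 and 18 blue dots, the immediate early list has its median at 1.03 and 8 red dots, and most lists of other cell types lie a little above 0.

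The same change was then set against that in the other strains. The C57 change lay above the mean change of SJL, SMJ and DBA for 118 genes (0.855% of 13802) and below it for 197 (1.43%), 315 genes together (2.28%), by limma's test of the difference itself. Against single strains 391 genes differed from SJL (2.83%), 368 from SMJ (2.67%) and 76 from DBA (0.551%). Without mouse B or A of C57 at 6 h 130 or 196 differed from the mean of the other strains, without mouse D, E or F at 3 h 179, 175 or 175 did, and without mouse 39 of SJL at 3 h 503 did.

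Of the 26 pericentral genes, 12 had a lower C57 change than the mean of the other strains, and none a higher one. Over all genes 1.43% had a lower and 0.855% a higher one. The median change was -1.74 in C57, against -0.40 in SJL, -0.47 in SMJ and -0.67 in DBA. At 3 h against 0 h the median was 0.14 in C57, against -0.34 in SJL, -0.35 in SMJ and -0.41 in DBA. At 6 h against 0 h the medians were -1.44 in C57 and -0.75 in SJL, -0.76 in SMJ and -0.94 in DBA. The difference for Cyp1a2 was -3.02 (adjusted p = 1.13e-05), for Lhpp -3.04 (adjusted p = 0.000199) and for Cyp2e1 -1.28 (adjusted p = 0.00481).

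Oat averaged 7776 ± 908, 9143 ± 824 and 728 ± 332 in C57 at 0 h, 3 h and 6 h (SD, n = 3 each), and 6255 ± 884, 5063 ± 945 and 2326 ± 886 in DBA. Cyp1a2 averaged 2757 ± 732, 3267 ± 499 and 335 ± 253 in C57 at the 3 times, and 5023 ± 637, 4328 ± 1297 and 4179 ± 184 in SJL. Akr1c6, with a difference of -3.27 (adjusted p = 7.55e-05), averaged 283 ± 164 in C57 at 6 h, against 3190 ± 280 in SJL, 1864 ± 416 in SMJ and 3856 ± 817 in DBA. For these genes C57 had the lowest mean of the 4 strains at 6 h. Fitm1, with a difference of -3.59 (adjusted p = 0.000112), averaged 251 ± 66.1, 289 ± 27.4 and 23 ± 3.89 in C57 at 0 h, 3 h and 6 h, and was dim in SJL and SMJ at all times, with means of 10.8 to 23.6.

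The median change of the heat shock genes was below 0 in C57 and above 0 in each of the other strains. Of 21, 6 had a lower C57 change than the mean of the other strains, where 1.43% of all genes did. These were Hspa1b, Hspb1, Hsph1, Dnaja4, Hsp90aa1 and Bag3. Medians over the list were -0.30 in C57, against 0.82 in SJL, 0.82 in SMJ and 0.27 in DBA. Hspa1b averaged 1070 ± 602, 2058 ± 940 and 285 ± 79.4 in C57 at 0 h, 3 h and 6 h, against 3059 ± 1991, 4567 ± 792 and 16186 ± 2515 in SMJ and 463 ± 81.5, 3632 ± 4060 and 10257 ± 3618 in SJL. Its difference was -4.68 (adjusted p = 0.0011) and held whichever array was left out, as did that of Hspb1 at -3.32 (adjusted p = 0.000753). The C57 mice at 6 h had the lowest Hspa1b signals of all mice at 6 h: the highest of them read 368, and the lowest mouse of DBA read 937.

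**Figure D5:**
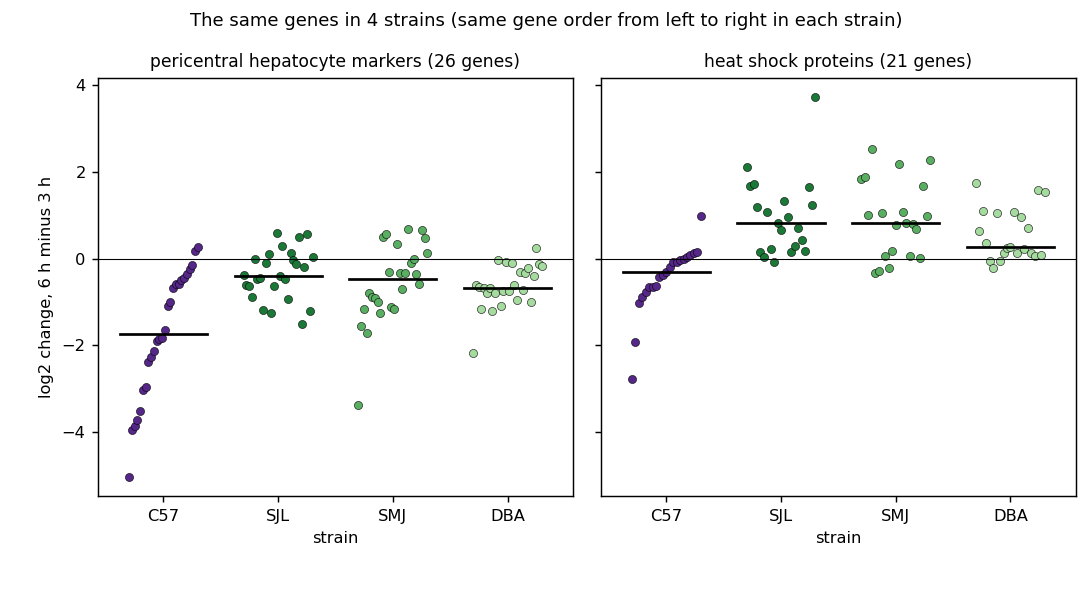
Each dot is the log2 change of 1 gene, 6 h minus 3 h, in 1 strain, for 26 pericentral genes (left) and 21 heat shock genes (right), with genes in the same left-to-right order in each strain and the median as a bar. C57 has the lowest median for both lists, at -1.74 and -0.30.

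Socs3 and Junb, whose C57 change was above that of the other strains, had lower signals in every C57 mouse at 3 h than in any mouse of the other strains at 3 h. Socs3, with a difference of 3.24 (adjusted p = 0.000753), averaged 147 ± 31.4, 139 ± 51.4 and 1391 ± 687 in C57 at 0 h, 3 h and 6 h, against 129 ± 12, 603 ± 341 and 628 ± 149 in SMJ, and it averaged 1015 ± 323 and 567 ± 274 in SJL at 3 h and 6 h. Junb, with a difference of 2.08 (adjusted p = 0.014), averaged 206 ± 32.7, 416 ± 61.2 and 2476 ± 559 in C57, against 203 ± 124, 1494 ± 190 and 1654 ± 301 in DBA. Over the 29 immediate early genes the median change at 3 h against 0 h was 1.01 in C57, against 1.64 in SJL, 1.33 in SMJ and 2.20 in DBA, and at 6 h against 0 h it was 2.49 in C57, against 2.20 in SJL, 2.16 in SMJ and 2.86 in DBA. Of the 29, 3 had a C57 change from 3 h to 6 h above that of the other strains by the test of the difference: Junb, Nr4a1 and Ier3. The share over all genes was 0.855%. Without mouse B of C57 at 6 h the adjusted p of the Junb and Nr4a1 differences was 0.0601 and 0.0717, and the Ier3 difference was lost without 27 of the 36 arrays.

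The 3 mice at 6 h differed in how far they lay from the 3 h level. Of the 18 pericentral genes called lower, mouse C had the signal nearest to the 3 h level in 10, mouse A in 6 and mouse B in 2. Of the 8 immediate early genes called higher, mouse C was nearest to the 3 h level in 7. The same mouse was nearest for all 6 bile acid genes and all 4 heat shock genes called lower, while for the 5 proteasome genes it was mouse A in 4.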

How the data were processed

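Total liver RNA of single mice was hybridised to 36 Affymetrix arrays (12 groups of 3 mice, 4 strains at 3 times). The deposited values are MAS5 intensity signals on a linear scale, 1 per probe set, as named in the submitters' processing notes; the MAS5 version and scaling target are not given in the sources used here, and no detection calls were used. Each array's mean with 2% trimmed at each end was 150. The values were used as deposited, with their 10th percentile (2.77) added before log2.

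Of 45101 probe sets, 64 were controls, 34945 named 1 gene by the platform annotation, 932 several and 9160 none. These gave 18193 genes, of which 13802 had at least 3 of 36 arrays above the median signal (30.8) and were tested. The probe set with the highest mean log2 signal stood for a gene, and those ending in _x_at, _s_at or _a_at only where a gene had no other. Signals of different probe sets were not compared.

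Group means of all 36 arrays were fitted with limma 3.58.1 in R 4.3.3 (24 residual degrees of freedom), with two-sided moderated tests and Benjamini-Hochberg adjustment over all genes tested, threshold 0.05. The fit was also run on simulated arrays with independent normal noise, of the same spread in every group for each gene. Such arrays meet the assumptions of the fit, so they cannot show how it handles outlying arrays. Figures were drawn with matplotlib 3.10.9 in Python 3.11.15. The number of arrays, 3 per group, limits the precision, and the labels do not say whether mice of a group shared a litter or a cage.

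The members and the 40 gene lists were chosen with earlier results of these data known; 77 list genes had no probe set of their own. Genes named by rule were the 15 largest rises and 15 largest falls with non-overlapping groups, the 10 largest differences each way from the other strains, from each list the 4 or fewer members of lowest p, and Atf3, Hmox1, Gclc, Gclm, Nqo1, Cyp2e1, Glul, Bhmt, Bhmt2 and Alb, 190 genes in all; clones and numbered loci without a name were passed over outside the lists. Other list members named in the text were chosen after their values were seen. Alternatives changed the arrays fitted, the scaling, the log offset, the filter, the choice of probe set, the variance prior and the array weights, or left out each array in turn. Promoter sequences are those of RefSeq (GRCm38.p6).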

Additional observations from a re-analysis of the deposited data

Results flagged for a closer look

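In 51 genes named by the rule the C57 change from 3 h to 6 h differed from the mean change of SJL, SMJ and DBA by limma's test of the difference (adjusted p under 0.05). Of these calls 25 held whichever of the 36 arrays was left out and 26 were lost without at least 1 array. Those lost most often were Psma1 (without 30 of the 36 arrays), Ankrd1, Dydc2, Ier3 and Mvd (27 each), F7 (25), Krt18 (23) and Slc4a9 (20), followed by Slco1b2 and Smad6 (10 each) and Mapk8ip2 (9). The other 15, among them Slc1a2, Spry2, Timeless, Rfx4, Junb and Krt8, were lost without 1 to 6. Each value is the C57 change minus that mean on the log2 scale.

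The pericentral genes among these 51 had lower C57 changes: Slc1a2 by -3.06, Lhpp by -3.04, Lect2 by -3.04, Cyp1a2 by -3.02, Oat by -2.48, Gulo by -2.33, Rgn by -2.30, Tbx3 by -1.64 and Cyp2e1 by -1.28. Of the whole list of 26, 12 passed this test. Other liver enzymes and transporters with lower C57 changes were Akr1c6 (-3.27), Csad (-2.18), Acot1 (-2.11), Cyp4a12a (-1.98), Acot2 (-1.68), Ugt2b1 (-1.33), Ehhadh (-1.0), Slco1b2 (-0.82) and Hsd3b7 (-0.75). The heat shock genes Hspa1b and Hspb1 stood at -4.68 and -3.32, the proteasome subunit Psma1 at -0.63, and the keratins Krt8 and Krt18 at -1.32 and -0.89.

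Genes dim in C57 at 6 h, with lower C57 changes, were E2f8 (-3.86), Fitm1 (-3.59), Rad51b (-2.90), Adgrg2 (-2.55) and Rfx4 (-2.30). Alas2, the erythroid heme enzyme, stood at -2.16. It averaged 271 ± 55.2 at 6 h and 516 ± 24.6 at 3 h in C57, a change that was not called, against 1081 ± 882 and 87.8 ± 28.6 in SMJ.

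Regulators with higher C57 changes were Socs3 (3.24), Nr4a1 (2.61), Junb (2.08), Ier3 (1.65), Irf1 (1.46), Spry2 (1.20), Spry4 (1.20) and the BMP inhibitor Smad6 (1.17). The iron exporter Slc40a1 stood at 1.16, the nuclease Dnase1l3 at 0.95, the histidine enzyme Ftcd at 0.63 and the clotting factor F7 at 0.47. The others were Alms1 (3.16), Timeless (3.04), Elane (2.87), Ankrd1 (2.72), Slc4a9 (2.69), Dydc2 (2.61), Mapk8ip2 (2.26), Trpm4 (2.11), Aldh1b1 (1.51) and Mvd (1.48). For Mapk8ip2 the further probe sets did not rise in C57.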

How the results depend on the processing

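Leaving out 1 array at a time gave 270 to 789 genes changed between 3 h and 6 h in C57, and 130 to 503 that differed from the mean of the other strains. The same range was 176 to 482 against SJL, 218 to 525 against SMJ, 26 to 146 against DBA, 10 to 59 for 3 h against 0 h and 768 to 1597 for 6 h against 0 h, and among list members 5 to 11 immediate early genes higher, 15 to 18 pericentral genes lower and 0 to 5 heat shock genes lower. With the 6 arrays alone 56 genes were called (2607 at an unadjusted p under 0.05), with 6 pericentral and 0 heat shock genes lower, and with the 9 C57 arrays 117 higher and 119 lower (2.4e+02 in all), with 1 heat shock gene, and 756 at 6 h against 0 h; both fits hold fewer arrays. With the 24 arrays at 3 h and 6 h the differences numbered 177 from the mean of the other strains, 220 from SJL, 187 from SMJ and 23 from DBA.

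Using every probe set gave 993 changes, 506 differences (572 from SMJ, 123 from DBA), 54 at 3 h against 0 h and 2330 at 6 h against 0 h, and array weights gave 1098, 574, 217 from DBA and 89 at 3 h against 0 h. Differences from DBA numbered 118 with 75th percentile scaling, 46 without the filter (243 from SMJ) and 150 with a mean signal of at least 100, which gave 48 at 3 h against 0 h. The cause of these shifts was not tested.

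Allowing probe sets ending in _a_at reversed Btg1 (-0.38), Egfr (0.10), Lifr (-0.85), Mapk8ip2 (-0.94, and -1.33 in the difference), Ndfip2 (-0.24), Nfkb2 (-0.059) and Plscr1 (-0.030), since another probe set then stood for the gene. Klf1, not called, turned to -0.011 under quantile normalization and stood between -0.040 (without mouse D at 3 h) and 0.25 when 1 array was left out, and Bhmt2, not called, between -0.025 (without mouse A at 6 h) and 0.27. Quantile normalization gave 218 genes higher and 387 lower. Of the 90 called genes named by the rule, 88 kept their call with 75th percentile scaling, 84 with quantile normalization, 80 without the filter, 49 with the 9 C57 arrays and 18 with the 6 arrays alone. The last filter on signal and the choice of _a_at were added after seeing the data. No paired analysis was possible because each mouse number occurs in 1 group only.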
